A study of Mus musculus with 18 samples.

Results

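The 10 genes examined here are germline genes that mouse somatic cells keep silent, and they were selected by gene name from the 55469 genes with usable values. Dazl, Ddx4, Mael, Asz1 and Stk31 encode RNA-binding proteins or proteins of nuage, the granules in which germ cells handle RNA. Sycp1 and Sycp3 encode proteins of the synaptonemal complex, the structure that holds paired chromosomes together in meiosis. Slc25a31, Dpep3 and Tex101 encode a mitochondrial ADP/ATP carrier, a membrane dipeptidase and a surface glycoprotein of the testis. All 10 were found once by name and were measured in all 18 libraries.

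Genes of this kind have promoters with many CpG sites, and in the body DNA methylation laid down around implantation keeps them off outside the germline. The complex PRC1.6 holds many of them down as well, through E2F6 and through MGA with MAX, which reads an E-box. Mouse ESCs grown with inhibitors of MEK and GSK3 plus LIF are known to have little DNA methylation, and transcripts of such genes can then be found in cells that are not germ cells. DNA methylation itself was not measured in these libraries, so the name of the group describes what is known of the genes and not a value in the files.

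The study asked whether continuous expression of the reprogramming factors, Oct4 with Sox2, Klf4 and c-Myc (together OSKM), could stand in for growth factors and inhibitors in keeping mouse cells pluripotent. RNA-Seq covered 18 libraries in 9 conditions with 2 libraries each. OSKM-ESCs were cells of a Tet-On-OSKM/Oct4-GFP ESC line moved from 2iL, which is N2B27 medium with both inhibitors and LIF, to N2B27 with doxycycline (DOX), and were collected 18, 25 or 38 days later. 2iL-ESCs were cells of the same line kept in 2iL and collected on the same days. The ESC line came from mating (C57BL/6 x 129S4/SvJae)F1 with F2 animals of the cross CBA/CaJ X C57BL/6J, so the cultures of ESCs share 1 line and their spread is that between cultures. The iPSC clones and the MEF cells came from (C57BL/6 x 129S4/SvJae)F1 embryos with the same DOX-driven transgene. OSKM-iPSCs, clones 1 and 3, were reprogrammed and grown in N2B27 with DOX and were at passages 7 and 6. 2iL-iPSCs, clones 3 and 6, were reprogrammed in 2iL with DOX and were at passages 2 and 3. For their routine culture the sample labels give N2B27 with DOX, whereas the design text of the series and the study's methods give 2iL, with DOX withdrawn. MEF cells, the fibroblasts that were reprogrammed, were 2 libraries at passage 4 in medium with serum. The transgene was thus carried in every library and driven by DOX in the OSKM-ESCs and OSKM-iPSCs. ESCs and iPSCs were derived on feeder layers of mitotically blocked fibroblasts.

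Levels are given as FPKM, fragments per kilobase of transcript scaled to a common number of mapped fragments, so levels of different genes can be compared. No read counts were in the files and the depth in reads is unknown. The median coverage per base for each unit of FPKM lay between 2.99 and 3.62 across the libraries, and 11303 to 12095 genes per library had an FPKM over 1. A gene given as 0 is listed at 0 and may still have been expressed below detection. In bulk RNA, fewer cells expressing a gene and less RNA per cell cannot be told apart. OSKM-iPSC clone 1 stood apart from the other pluripotent libraries in its fibroblast markers, with Col1a1, a collagen gene, at an FPKM of 28.1 against 0.114 in clone 3, and each result on the OSKM-iPSCs is therefore also given by clone.

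The promoters of the 10 genes were read from RefSeq on GRCm38.p6, in windows of 300 bases that begin 250 bases before the start and end 50 bases after it. All 10 members matched an entry. Their windows held 12 to 38 CpG sites with a median of 21.5, against a median of 7 over 32851 promoters. The hexamer CACGTG, an E-box that reads the same on both strands, was present in 6 of the 10 windows and in 7.15% of all promoters. The hexamer TCCCGC or its reverse complement GCGGGA, part of the E2F motif, was present in 5 of the 10 and in 20.0% of all promoters. Both hexamers occurred in 5 members, namely Ddx4, Mael, Sycp1, Sycp3 and Slc25a31, and in 1.99% of all promoters. Stk31 had the E-box alone, and Dazl, Asz1, Dpep3 and Tex101 had neither. The RefSeq start of Tex101 lies well inside the gene as the files draw it, so its window is not the promoter of the annotated gene start. Both hexamers contain a CpG, and the shares of all promoters were not matched for the number of CpG sites. The shares are thus no measure of what promoters as rich in CpG would hold. A match is a run of letters and not a measured binding site.

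A stretch of 180 bases is shown for Dazl, the member with the largest log2 fold change between media, and for 4 members that carry the E-box upstream, each 5′ to 3′ on the strand of the gene. Each stretch ends just before the outermost start of the gene, be it that of RefSeq or that of the files. For Sycp1 this is the RefSeq start used for the window, while for Dazl and Slc25a31 16 bases, for Sycp3 18 bases and for Stk31, which has 2 RefSeq starts, 65 bases lie between the stretch and that start. Capitals mark CACGTG and, in Sycp3, GCGGGA.

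Dazl, chr17:50293637-50293816, minus strand: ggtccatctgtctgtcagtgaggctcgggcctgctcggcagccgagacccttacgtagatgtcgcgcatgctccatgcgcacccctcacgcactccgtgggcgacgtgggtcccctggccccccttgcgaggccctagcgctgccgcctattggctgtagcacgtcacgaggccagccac
Stk31, chr6:49395359-49395538, plus strand: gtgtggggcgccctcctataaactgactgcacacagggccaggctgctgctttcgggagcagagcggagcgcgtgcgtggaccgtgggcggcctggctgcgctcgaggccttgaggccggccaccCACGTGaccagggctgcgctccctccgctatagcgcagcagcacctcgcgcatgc
Sycp1, chr3:102936101-102936280, minus strand: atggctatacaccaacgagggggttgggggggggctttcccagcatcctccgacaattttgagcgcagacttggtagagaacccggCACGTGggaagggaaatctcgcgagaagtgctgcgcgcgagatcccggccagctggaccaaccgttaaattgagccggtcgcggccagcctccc
Sycp3, chr10:88459389-88459568, plus strand: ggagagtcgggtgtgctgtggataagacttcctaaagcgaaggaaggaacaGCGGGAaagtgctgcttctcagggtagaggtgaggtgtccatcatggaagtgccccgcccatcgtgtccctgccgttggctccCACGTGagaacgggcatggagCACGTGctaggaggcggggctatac
Slc25a31, chr3:40708675-40708854, plus strand: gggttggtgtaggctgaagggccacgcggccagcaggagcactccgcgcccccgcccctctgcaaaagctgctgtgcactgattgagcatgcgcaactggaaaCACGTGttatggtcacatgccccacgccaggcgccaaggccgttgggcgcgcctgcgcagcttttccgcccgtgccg

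In the stretch of Sycp3 the E-boxes begin 46 and 25 bases from its end, which is -64 and -43 from the RefSeq start. In Stk31 the E-box begins 55 bases from the end, in Sycp1 94 and in Slc25a31 77, which is -120, -94 and -93 from the RefSeq start. The windows of Sycp1 and Slc25a31 hold the E2F hexamer just past the start, outside the stretches shown.

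**Figure D1:**
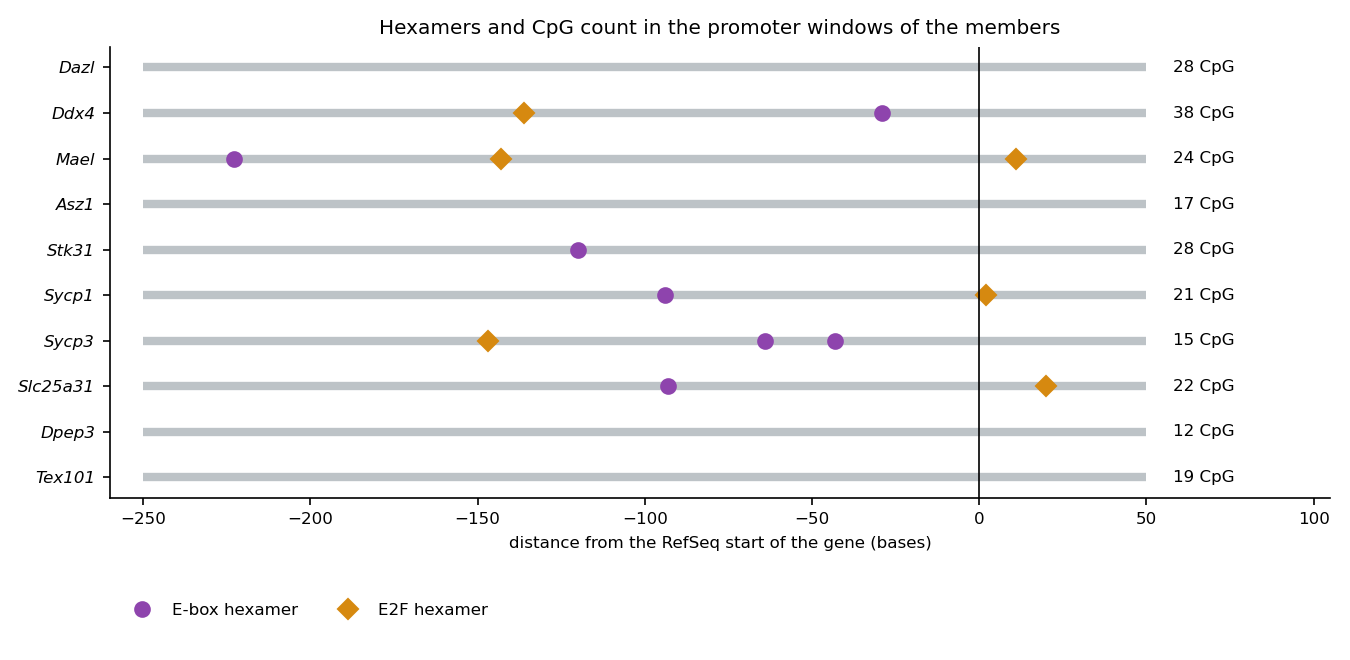
Positions of the E-box hexamer (circles) and the E2F hexamer (diamonds) in the promoter windows of the 10 members, on an axis of bases from the RefSeq start, with the number of CpG sites at the right. The 6 members with an E-box are Ddx4, Mael, Stk31, Sycp1, Sycp3 and Slc25a31, and the CpG counts run from 12 in Dpep3 to 38 in Ddx4.

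All 10 members had their highest mean in a 2iL condition and their lowest in MEF cells or in OSKM-ESCs of day 38. In 6 members the highest mean was that of the 2iL-iPSCs. The summed FPKM of the 10 genes was 25.2 to 39.7 in 2iL-ESCs and 38.4 to 74.9 in 2iL-iPSCs. It was 1.87 to 13.2 in OSKM-ESCs, 3.49 and 21.3 in the OSKM-iPSC clones, and 0.850 and 0.904 in MEF cells. Every 2iL library thus lay above every OSKM library and both MEF libraries in this sum. When the 9 conditions were put in order for a member, 1 to 6 of the 8 steps between neighbours had libraries that did not overlap, and at the other steps the neighbours overlapped. The order of Dazl was 2iL-iPSCs, 2iL-ESCs of days 18, 25 and 38, OSKM-iPSCs, OSKM-ESCs of days 25, 18 and 38, and MEF cells. In it only 2iL-ESCs of days 18 and 25, and OSKM-iPSCs and OSKM-ESCs of day 25, overlapped. For Dpep3 and Tex101 1 of the 8 steps had no overlap.

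**Figure D2:**
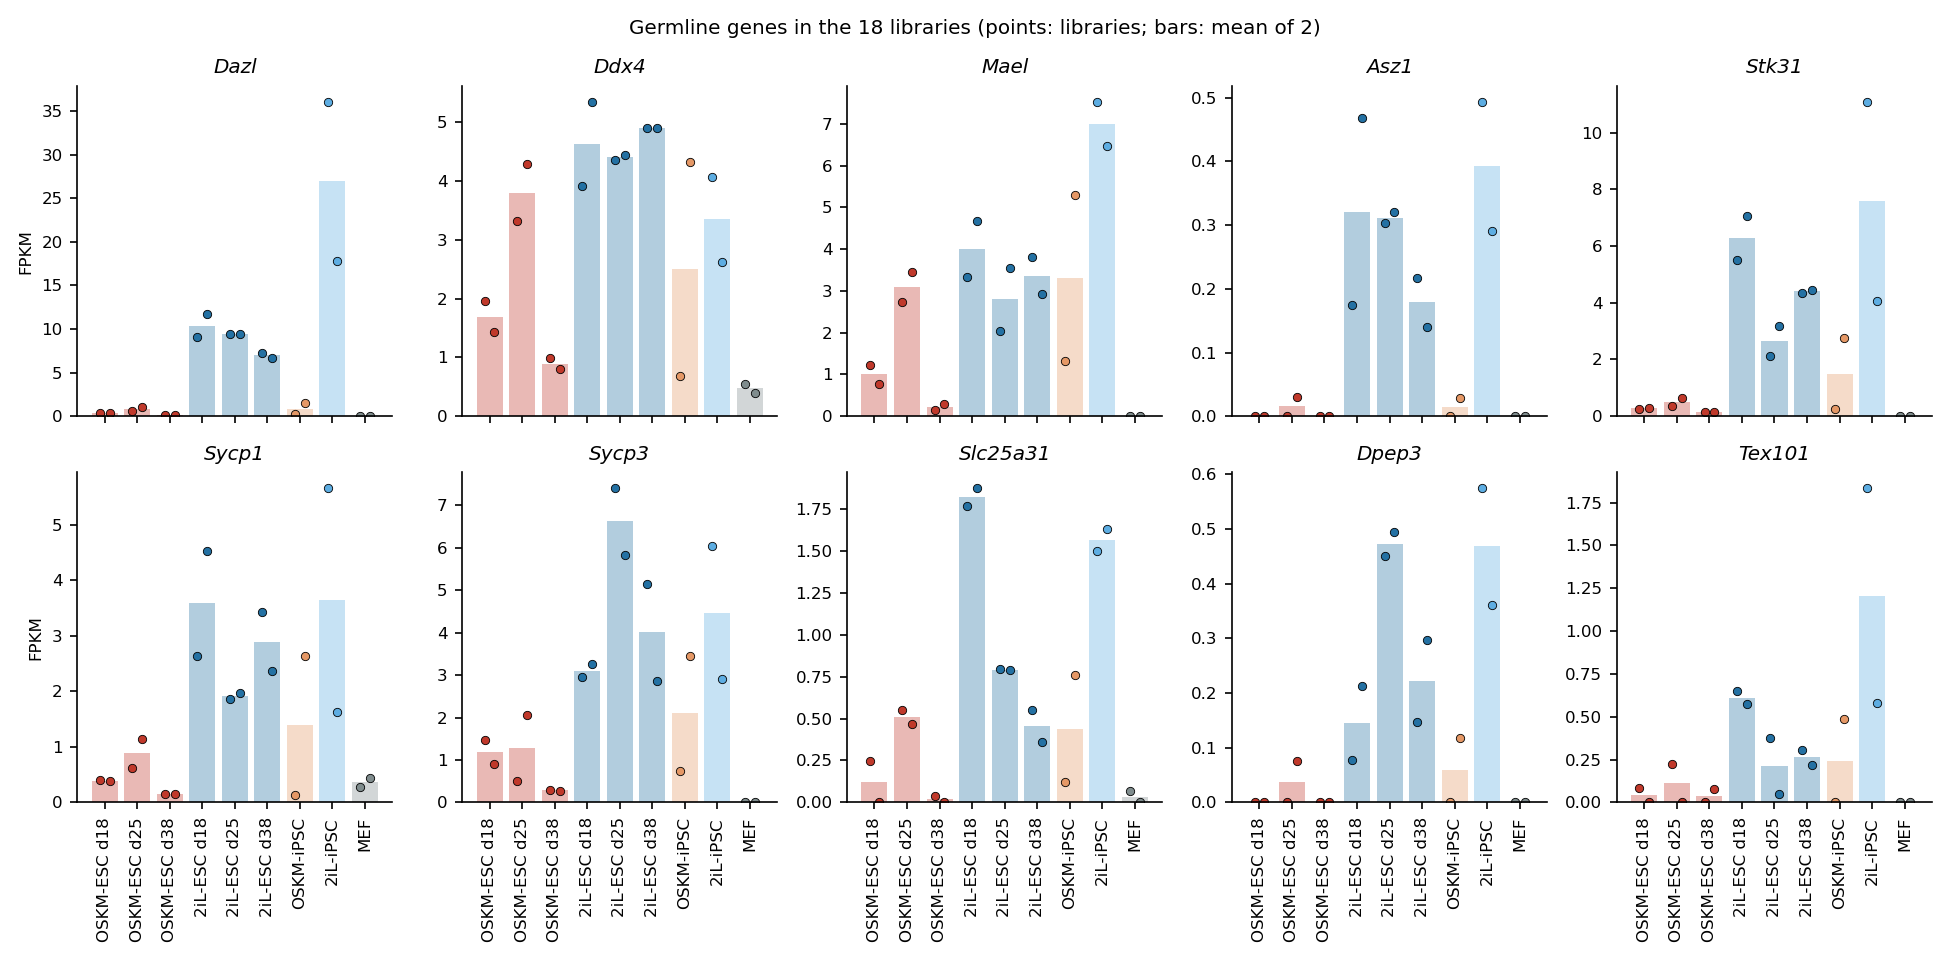
FPKM of each member in the 18 libraries, with points for libraries, bars for the mean of the 2 libraries of a condition, and a vertical axis of its own for each gene. The 2iL conditions are high, and MEF cells are at or near 0, with 0.552 for Ddx4 the highest value in MEF cells. Among OSKM-ESCs the mean of day 25 stands above those of days 18 and 38, though in Sycp3, Asz1, Dpep3 and Tex101 single cultures overlap.

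The first question was whether the members differed between OSKM-ESCs and 2iL-ESCs over the 3 days. They were lower in OSKM-ESCs: 7 of the 10 members reached an FPKM over 1 in some culture and could be tested, and all 7 fell at an adjusted p under 0.05 (limma on log2(FPKM + 1), 6 against 6, day as a covariate), where 24.4% of the 14016 genes tested were lower. At the study's own cutoff, a fold over 2 with an unadjusted p under 0.05, the number was 7 as well, beside 10.5%. The median log2 fold change of the 7 was -1.36, beside 0.03 over all genes tested. Asz1, Dpep3 and Tex101 stayed under the filter in all 12 cultures. Stk31 and Slc25a31 passed it only through 2iL-ESCs, with highest values of 0.627 and 0.554 in OSKM-ESCs. Their direction was thus largely set by the filter. In 6 of the 10 members no OSKM-ESC culture reached the lowest 2iL-ESC culture, and 12% of genes over an FPKM of 1 showed that pattern. Asz1 and Dpep3 are among the 6 but not among those genes.

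Among the genes of RNA binding and nuage, Dazl (ENSMUSG00000010592, GRCm38 chromosome 17, 50279395 to 50293636, minus strand), a regulator of translation without which germ cells do not develop, had the largest log2 fold change of the members tested. Its FPKM was 0.104, 0.361 and 1.0 in OSKM-ESCs (lowest, median and highest of 6 cultures) and 6.67, 9.27 and 11.7 in 2iL-ESCs. The media did not overlap, and the mean was 21.0 times higher in 2iL-ESCs. On the log2(FPKM + 1) scale the change was -2.81 ± 0.11 (SE; limma adjusted p = 3.0e-09). An exact 2-sided permutation test over the 924 arrangements of 6 against 6 gave p = 0.0022, the smallest it can give. The test took no account of day. Whether the days sampled the same cultures is not given in the sources used here. The 6 cultures of a medium may thus not be independent.

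Stk31 (ENSMUSG00000023403, chromosome 6, 49395604 to 49469501, plus strand), a Tudor-domain protein of male germ cells, came next. It had an FPKM of 0.155, 0.279 and 0.627 in OSKM-ESCs and of 2.14, 4.41 and 7.05 in 2iL-ESCs. Again no OSKM-ESC culture came near a 2iL-ESC culture, and the log2 fold change was -2.0 ± 0.18 (SE; limma adjusted p = 2.7e-06).

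Ddx4 (ENSMUSG00000021758, chromosome 13, 112598333 to 112652475, minus strand), the germ cell RNA helicase also called Vasa, had the smallest ratio of means, 2.18 times higher in 2iL-ESCs. Its FPKM was 0.797, 1.69 and 4.28 in OSKM-ESCs and 3.92, 4.67 and 5.35 in 2iL-ESCs. The highest OSKM-ESC culture, of day 25, lay inside the range of the 2iL-ESCs. The log2 fold change was -0.96 ± 0.20 (SE; limma adjusted p = 0.0016).

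Mael (ENSMUSG00000040629, chromosome 1, 166201201 to 166238747, minus strand), which acts in the piRNA pathway that silences transposons, overlapped as well. It had an FPKM of 0.142, 1.01 and 3.47 in OSKM-ESCs and of 2.05, 3.44 and 4.67 in 2iL-ESCs. Both OSKM-ESC cultures of day 25 lay inside the range of the 2iL-ESCs, and the log2 fold change was -1.01 ± 0.27 (SE; limma adjusted p = 0.0084).

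Asz1 (ENSMUSG00000010796, chromosome 6, 18050964 to 18109061, minus strand), a scaffold of nuage at mitochondria, was low everywhere. It was listed at 0 in 5 of 6 OSKM-ESC cultures and at an FPKM of 0.0308 in the sixth, against 0.141, 0.260 and 0.468 in 2iL-ESCs. The groups did not overlap (exact permutation test, p = 0.0022), but the highest coverage behind any of its 18 values was 1.45 per base.

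The synaptonemal complex genes moved with them. Sycp1 (ENSMUSG00000027855, chromosome 3, 102818499 to 102936100, minus strand), which spans the gap between paired chromosomes, had an FPKM of 0.154, 0.389 and 1.14 in OSKM-ESCs and of 1.86, 2.5 and 4.53 in 2iL-ESCs. Its groups did not overlap, with a log2 fold change of -1.36 ± 0.19 (SE; limma adjusted p = 9.1e-05).

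Sycp3 (ENSMUSG00000020059, chromosome 10, 88459569 to 88473236, plus strand), which builds the axes of the chromosomes, had an FPKM of 0.278, 0.701 and 2.07 in OSKM-ESCs and of 2.86, 4.21 and 7.41 in 2iL-ESCs. No culture overlapped, and the log2 fold change was -1.56 ± 0.22 (SE; limma adjusted p = 8.3e-05). Sycp3 shares 660 exonic bases with Chpt1 on the other strand, and the strand setting of the counting is not given in the sources used here. Chpt1, an enzyme of phosphatidylcholine synthesis, was at 6.49 and 6.97 in MEF cells, where Sycp3 was listed at 0 in both libraries.

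Of the testis carrier and surface proteins, Slc25a31 (ENSMUSG00000069041, chromosome 3, 40708855 to 40726096, plus strand), the ADP/ATP carrier of male germ cells, was the member that could be tested. It was listed at 0 in 2 of 6 OSKM-ESC cultures, with a median FPKM of 0.142 and a highest value of 0.554, against 0.361, 0.793 and 1.88 in 2iL-ESCs. The cultures overlapped, and the log2 fold change was -0.70 ± 0.16 (SE; limma adjusted p = 0.0031).

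Dpep3 (ENSMUSG00000031898, chromosome 8, 105973513 to 105979429, minus strand), a dipeptidase anchored to the cell surface, was listed at 0 in 5 of 6 OSKM-ESC cultures and at 0.0762 in the sixth. In 2iL-ESCs its FPKM was 0.0768, 0.255 and 0.495, so the groups did not overlap but nearly met. It shares 119 exonic bases with the non-coding gene Gm45752. Tex101 (ENSMUSG00000062773, chromosome 7, 24668007 to 24676675, minus strand), a glycoprotein of germ cell surfaces, was listed at 0 in 3 of 6 OSKM-ESC cultures and reached 0.225, against 0.0460, 0.342 and 0.649 in 2iL-ESCs. Exact permutation tests, 2-sided and 6 against 6, gave p = 0.0022 for Dpep3 and p = 0.015 for Tex101. In these tests all 10 members were lower with a p under 0.05, beside 22.2% of the 14016 genes, and 6 of them had the smallest p that can be had, beside 12%. Those shares cover only genes over an FPKM of 1 in some culture. Asz1, Dpep3 and Tex101 are counted among the members but lie outside that set.

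Fibroblast markers moved in the opposite direction and are given here because the line was derived on fibroblast feeders. Of 10 markers, 8 were tested and 7 rose in OSKM-ESCs, with a summed FPKM of 18.5 to 39.6 in OSKM-ESCs, 4.09 to 6.72 in 2iL-ESCs and 2247 to 2553 in MEF cells. Of all 14016 genes tested, 4131 rose and 3415 fell. In OSKM-ESCs 8 markers were over an FPKM of 1 in some culture, against 3 in 2iL-ESCs. For those over it only in OSKM-ESCs the filter largely set the direction. No marker was at 0 in every OSKM-ESC culture. The OSKM-ESC sums were 0.771% to 1.65% of the mean of the MEF libraries. The part of fibroblasts in the levels of the members was not tested. Markers of spermatids were nearly absent, with a summed FPKM of at most 0.108 over 8 genes in any ESC culture and 6 of the 8 at 0 in every 2iL-ESC culture. Of 8 oocyte markers only Zp3, a coat protein of the egg, passed the filter, and it fell as well, from a mean FPKM of 24.5 in 2iL-ESCs to 1.5 in OSKM-ESCs. Many markers of primordial germ cells are also genes of naive ESCs. Of 7 such markers, 5 fell and 1 rose, the largest change being that of Kit, the stem cell factor receptor, with a log2 fold change of -2.58 ± 0.16 (SE; limma adjusted p = 1.2e-07).

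**Figure D3:**
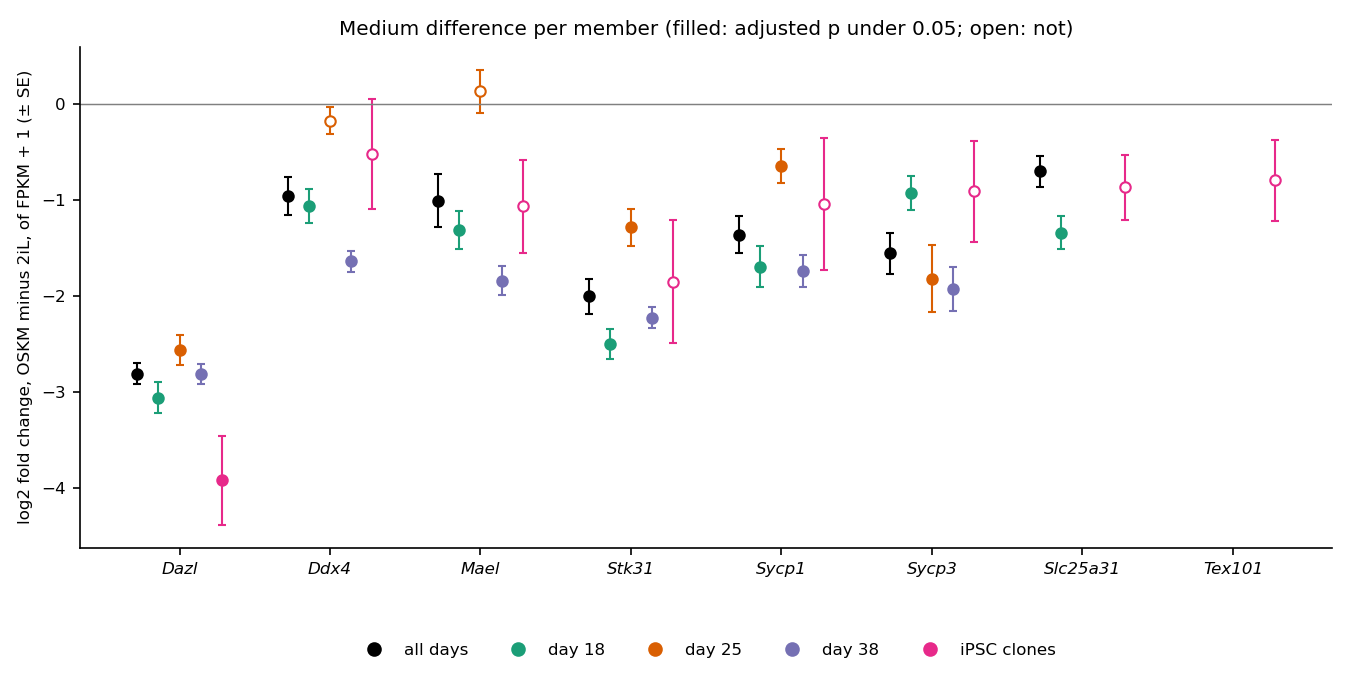
Log2 fold change of FPKM + 1, OSKM minus 2iL, of each member that passed the filter, for ESCs over all days, for ESCs of single days and for iPSC clones, with bars of 1 SE. Filled points have an adjusted p under 0.05 by limma. Dazl is lowest throughout, and Ddx4 and Mael on day 25 are the ESC values with open points.

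The difference between media changed with the day. On day 18 all 7 members tested were lower in OSKM-ESCs with an adjusted p under 0.05 (limma, 2 against 2), beside 17.7% of all genes. On day 25 the number was 4 of 6, beside 25.3%, and on day 38 it was 6 of 6, beside 25.2%. On day 38 0 members were over an FPKM of 1 in OSKM-ESCs, so those tested entered only through 2iL-ESCs. That filter left them little room to be higher in OSKM-ESCs, while the shares cover genes that entered through either medium. The same held for Dazl, Stk31, Sycp1 and Slc25a31 on day 18 and for Stk31 on day 25. The median log2 fold change was -1.34 on day 18, -0.97 on day 25 and -1.88 on day 38, against 0.07, -0.05 and 0.07 over all genes tested. In 7 of the 10 members the difference was nearest to 0 on day 25, the exceptions being Asz1, Sycp3 and Dpep3. The cultures of the media did not overlap in 10 members on day 18 (31.2% of genes), in 8 on day 25 (41.1%) and in 10 on day 38 (34.6%). These shares cover only genes over an FPKM of 1 in some culture compared, whereas the counts are out of all 10 members. An exact test of 2 against 2 cannot give a p under 0.333.

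The interaction of medium and day was tested in a fit of the 12 ESC cultures, and 5 of 7 members passed (limma, F test, adjusted p under 0.05), beside 37.9% of all genes. The members were Ddx4, Mael, Slc25a31, Stk31 and Sycp1. Dazl and Sycp3 did not pass, with adjusted p = 0.18 and adjusted p = 0.17 by limma. For Ddx4 the log2 fold change was -1.06 ± 0.18 on day 18, -0.18 ± 0.14 on day 25 and -1.64 ± 0.11 on day 38 (SE). For Mael it was -1.31 ± 0.19, 0.13 ± 0.22 and -1.84 ± 0.15 (SE). On day 25 neither gene was called (limma, 2 against 2, adjusted p = 0.34 for Ddx4 and 0.66 for Mael). The cultures of Mael overlapped, while those of Ddx4 did not, at 3.31 and 4.28 in OSKM-ESCs against 4.36 and 4.44 in 2iL-ESCs.

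Within OSKM-ESCs the mean was highest on day 25 for all 10 members and lowest on day 38, where Asz1 and Dpep3 were listed at 0 as they were on day 18. The share of all genes with that order of means was not worked out. In Asz1, Dpep3 and Tex101 the high mean of day 25 rested on 1 culture, the other being listed at 0. In Sycp3 the cultures of day 25 were at 0.509 and 2.07, around those of day 18 at 1.47 and 0.893. Ddx4 had an FPKM of 1.95 and 1.43 on day 18, 3.31 and 4.28 on day 25, and 0.993 and 0.797 on day 38. Mael had 1.23 and 0.782, then 2.73 and 3.47, then 0.142 and 0.286. For both genes each pair of cultures was separate from the pairs of the other days. Sycp1 had 0.396 and 0.382 on day 18, 0.622 and 1.14 on day 25, and 0.154 in both cultures of day 38. Between the cultures of day 25 and day 38, 7 of 10 members did not overlap, beside 24.5% of genes. Day 25 also lay above day 18 without overlap in 6 members, beside 29.7%, and day 18 above day 38 in 6, beside 30%. Only genes over an FPKM of 1 in some culture compared enter these shares, whereas the counts are out of all 10 members.

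The F test over the 3 days of OSKM-ESCs passed for Ddx4 (limma adjusted p = 0.0037) and Mael (limma adjusted p = 0.0018), 2 of the 5 members tested, beside 38.6% of all genes. Sycp1 (limma adjusted p = 0.054), Dazl (0.067) and Sycp3 (0.14) did not pass. Without the first culture of day 25 the number was 4. In 2iL-ESCs the same test passed for 4 of 7 members, Dazl, Stk31, Sycp3 and Slc25a31, beside 50.8% of all genes. The order of days there was not a common one, with day 25 highest in 2 members, Sycp3 and Dpep3. Slc25a31 was at 1.77 and 1.88 on day 18, at 0.793 in both cultures of day 25 and at 0.553 and 0.361 on day 38. Without either culture of day 25 the number was 2. Days were collected once each, so day and collection cannot be told apart.

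The de novo DNA methyltransferases were read in the same cultures. Dnmt3b, which adds methyl groups to unmethylated DNA, had an FPKM of 144 and 155 on day 18, 366 and 358 on day 25, and 154 and 158 on day 38 in OSKM-ESCs. In 2iL-ESCs it had 108 and 109, 50.3 and 48.2, and 91.5 and 86.6. Dnmt3b was thus higher in OSKM-ESCs on each day, and most of all on the day when the members were highest there. Dnmt3a, the second such enzyme, was at 37.5 and 35.0, 90.8 and 76.4, and 39.5 and 33.1 in OSKM-ESCs. Dnmt3l, their cofactor without an enzyme activity of its own, was at 27.2 and 30.8, 82.9 and 75.4, and 11.0 and 11.5 in OSKM-ESCs, and at 142 and 140, 31.9 and 32.5, and 81.5 and 80.0 in 2iL-ESCs. The interaction of medium and day passed for all 3 genes (limma adjusted p = 0.0013 for Dnmt3a, 1.2e-06 for Dnmt3b and 2.4e-07 for Dnmt3l). Whether methylation at the members' promoters followed was not tested.

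**Figure D4:**
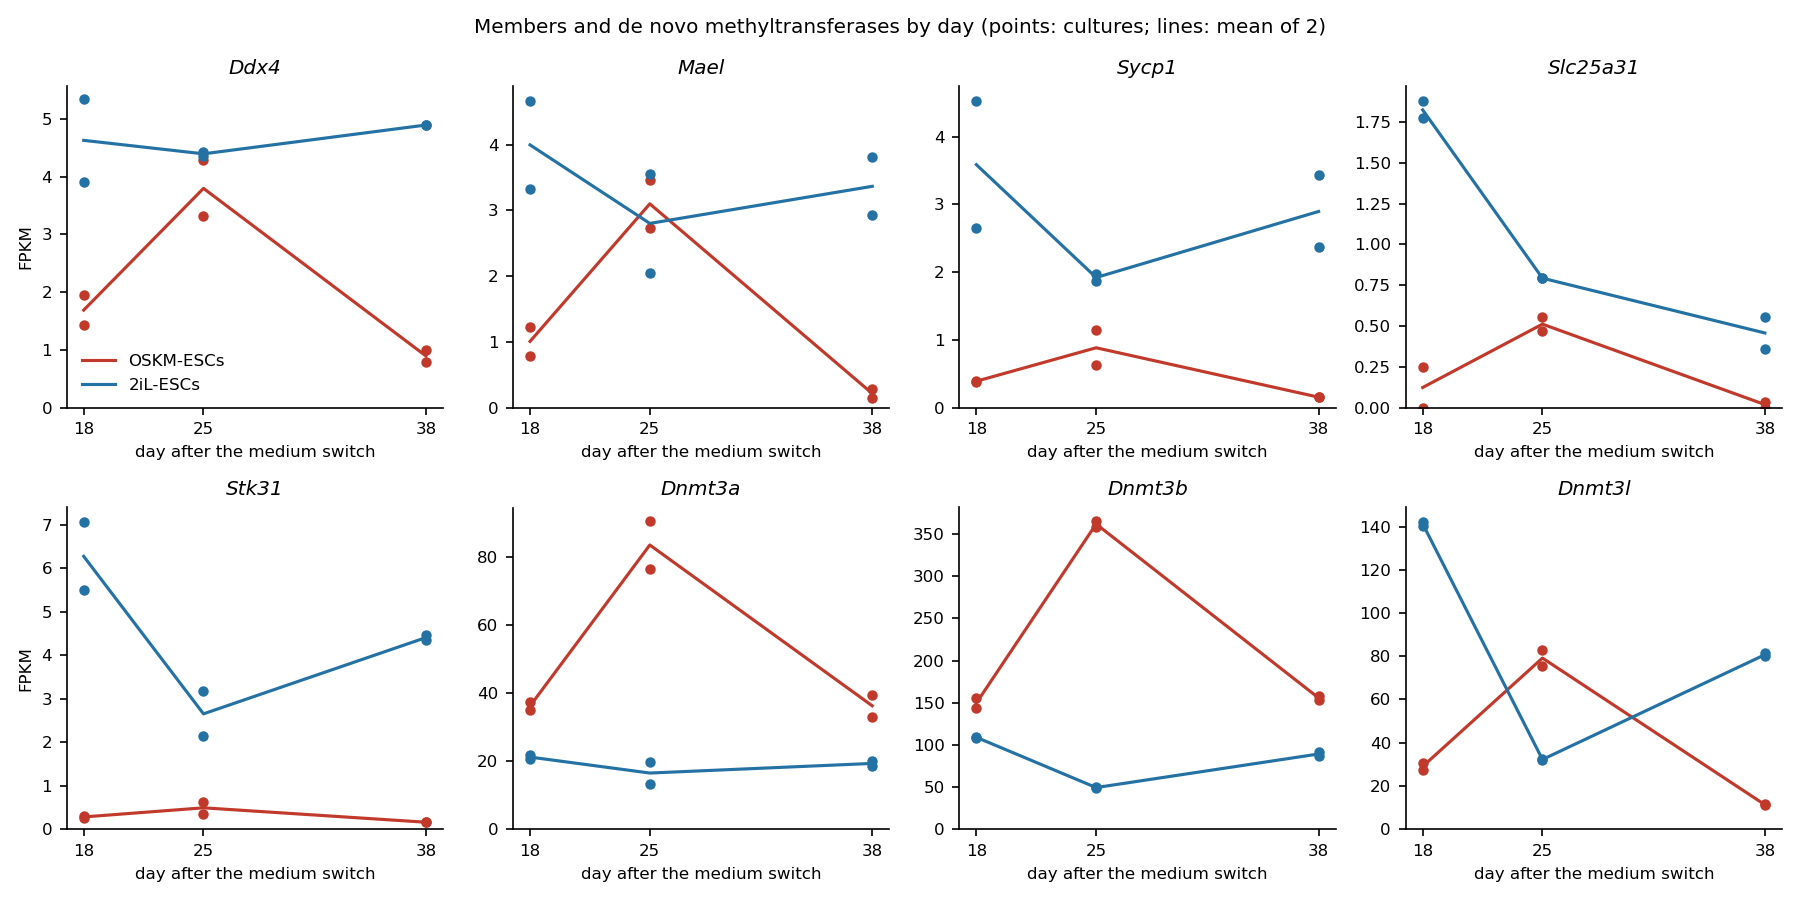
FPKM by day in OSKM-ESCs (red) and 2iL-ESCs (blue) for the 5 members whose medium difference varied with the day and for the 3 Dnmt3 genes, with points for cultures and lines through the mean of 2. In OSKM-ESCs all 8 genes are highest on day 25, and Mael meets the 2iL-ESCs on that day.

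In the iPSC clones Dazl again had the largest log2 fold change of the members tested. Of 8 members tested, 1 fell in OSKM-iPSCs at an adjusted p under 0.05 (limma, 2 against 2), beside 2.96% of the 13653 genes tested, and 3 had an unadjusted p under 0.05, beside 29.3% in either direction. At the study's own cutoff, a fold over 2 with that unadjusted p, the 3 were lower, beside 6.33%. The median log2 fold change of the 8 was -0.97, against 0.09 over all genes tested. Of the 8, Slc25a31 and Tex101 passed the filter only through the 2iL-iPSCs, which largely set their direction. In 7 of the 10 members both OSKM-iPSC clones lay below both 2iL-iPSC clones, beside 25.4% of genes. That share covers only genes over an FPKM of 1 in some clone compared, whereas Asz1 and Dpep3, among the 7, were not. Passage differed with the medium, so the effects of both cannot be told apart.

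Dazl had an FPKM of 0.234 and 1.47 in OSKM-iPSC clones 1 and 3 and of 36.1 and 17.8 in 2iL-iPSC clones 3 and 6. Its log2 fold change was -3.92 ± 0.46 (SE; limma adjusted p = 0.017), and its mean was 31.5 times higher in 2iL-iPSCs. The call rested on both 2iL-iPSC clones, since without either of them 0 members passed and 1 had an unadjusted p under 0.05, the log2 fold change of Dazl being -3.43 and -4.41 (limma adjusted p = 0.32 in both). Stk31 had 0.256 and 2.75 in OSKM-iPSCs and 11.1 and 4.06 in 2iL-iPSCs. Its log2 fold change was -1.85 ± 0.64 (SE; limma adjusted p = 0.13). Mael had 1.31 and 5.30 against 7.53 and 6.48 and Slc25a31 0.120 and 0.762 against 1.5 and 1.63, without overlap in either gene (limma adjusted p = 0.21 and 0.16). Asz1, Dpep3 and Tex101 had no overlap, with values of 0 to 0.489 in OSKM-iPSCs and 0.291 to 1.84 in 2iL-iPSCs. For Ddx4, Sycp1 and Sycp3 OSKM-iPSC clone 3 lay above the lower 2iL-iPSC clone.

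The OSKM-iPSC clones differed from each other in a common direction. Clone 3 was higher than clone 1 in all 10 members, by 4.04 times in Mael to 18.8 times in Sycp1 among the 7 members that clone 1 did not list at 0. This sets 1 library against another, and the share of all genes higher in clone 3 was not worked out. These clones were also the least alike pair of libraries of any condition, with a Pearson r of 0.931. Ddx4 in clone 3, at 4.32, was 129% of the mean of the 2iL-iPSCs, Sycp3 77.1%, Mael 75.7% and Sycp1 72.5%, whereas Dazl was 5.47%. In clone 1 these shares were 0.869% for Dazl and 3.38% to 20.2% for Stk31, Sycp1, Slc25a31, Sycp3, Mael and Ddx4. The summed FPKM of the fibroblast markers was 103 for clone 1 and 3.72 for clone 3, and none of the 10 was at 0 in both. The sum of clone 1 was 4.30% of that of MEF cells. Dnmt3b was at 133 in clone 1 and 222 in clone 3, and Dnmt3l at 40.6 and 163. With clone 3 alone the number of members called against the 2iL-iPSCs stayed at 1, Dazl (log2 fold change -3.42, limma adjusted p = 0.035), and Ddx4 turned to 0.31. With clone 1 alone it was 3, Dazl, Mael and Slc25a31.

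**Figure D5:**
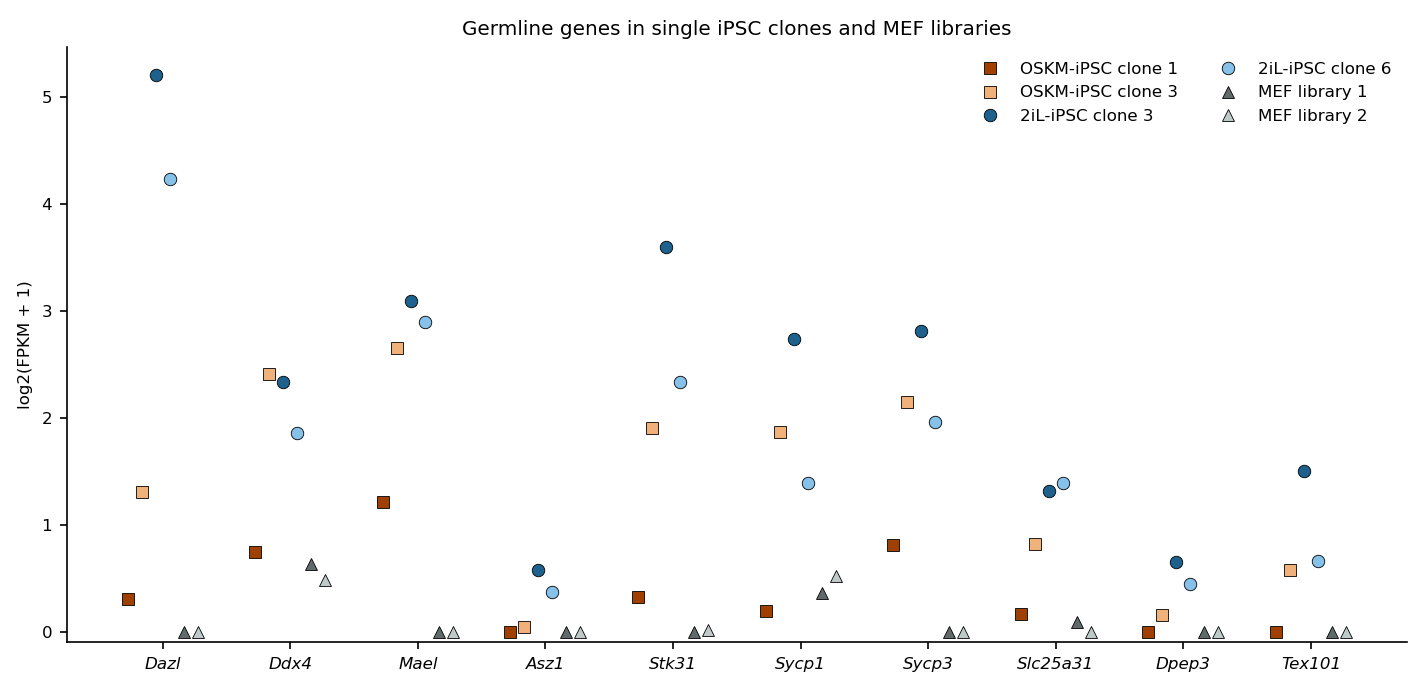
Log2(FPKM + 1) of the 10 members in each OSKM-iPSC clone (squares), 2iL-iPSC clone (circles) and MEF library (triangles). Clone 3 of the OSKM-iPSCs lies above clone 1 in every member, and in Dazl both stay below the 2iL-iPSC clones.

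Within a medium, iPSCs and ESCs were compared next. None of the 6 members tested passed between OSKM-iPSCs and OSKM-ESCs (limma, 2 against 6, 0 calls at an adjusted p under 0.05, beside 1.88% of all genes), and 0 had an unadjusted p under 0.05, beside 16.4%. The log2 fold changes lay between 0.05 ± 0.50 (SE) for Ddx4 and 0.83 ± 0.56 (SE) for Mael. Without clone 1 the number was 1. No member had both clones above all 6 cultures, beside 10.4% of genes. In 2iL, 1 of 8 members was higher in iPSCs, beside 1.62% of all genes. That member was Dazl, with a log2 fold change of 1.43 ± 0.26 (SE; limma adjusted p = 0.021), and 4 members had an unadjusted p under 0.05 in either direction, beside 19.6%. It lost the call without 2iL-iPSC clone 3 (limma adjusted p = 0.16) or without the first 2iL-ESC culture of day 38 (limma adjusted p = 0.053). Both 2iL-iPSC clones lay above all 6 cultures of 2iL-ESCs in 2 members, Dazl and Mael, beside 9.96% of genes. The shares of 10.4% and 9.96% cover only genes over an FPKM of 1 in some library compared. Strain differs between ESCs and iPSCs and cannot be told apart from the cell type.

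MEF cells, from which the iPSCs were made, had the members at or near 0. Dazl, Mael, Sycp3, Asz1, Dpep3 and Tex101 were listed at 0 in both libraries, Stk31 and Slc25a31 in 1 of them at 0 and in the other at 0.0144 and 0.0675. Ddx4 had an FPKM of 0.552 and 0.397 and Sycp1 one of 0.284 and 0.439. No member was over an FPKM of 1 in MEF cells, so in both comparisons below the members tested passed the filter only through the iPSCs. Their direction was thus largely set by the filter, while the shares cover genes that entered from either side. All 8 members tested were higher in 2iL-iPSCs than in MEF cells (limma, 2 against 2), beside 40.6% of all genes, with log2 fold changes from 1.08 for Tex101 to 4.72 for Dazl. Leaving out either MEF library left 3 of the 8. Without overlap, 10 of 10 members were above MEF cells in 2iL-iPSCs, beside 46.9% of genes, and 6 of 10 in OSKM-iPSCs, beside 47.6%. Only genes over an FPKM of 1 in some library compared enter these 2 shares, whereas the counts are out of all 10 members. In OSKM-iPSCs 1 of 6 members was higher than in MEF cells, Mael (log2 fold change 1.93 ± 0.53, SE; limma adjusted p = 0.035), beside 34% of all genes. Without clone 1 the number was 6 of 6, and without either MEF library 0, with 0 at an unadjusted p under 0.05. Median-ratio scaling, which shifts the OSKM-iPSCs by 0.20 and the 2iL-iPSCs by 0.14 on the log2 scale against MEF cells, left both counts as they were.

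Other genes of the same pathways were listed by function. Over all days 3415 of the 14016 genes tested fell in OSKM-ESCs and 4131 rose. Of 22 other meiosis genes 13 were tested over all days, and 12 fell in OSKM-ESCs and 0 rose, with a median log2 fold change of -0.94. Hormad1, which marks unpaired chromosome axes, changed most, from a mean FPKM of 10.1 in 2iL-ESCs to 0.712 in OSKM-ESCs, a log2 fold change of -2.72 ± 0.17 (SE; limma adjusted p = 1.6e-07). Stag3, the cohesin subunit of meiosis, went from 13.6 to 1.6. All 5 tested of 7 other germline genes known to be silenced through their promoters fell, with a median of -2.14. Of the meiosis genes 10 were over an FPKM of 1 in some OSKM-ESC culture, against 13 in 2iL-ESCs. In the list of 7 the numbers were 3 and 5. For genes over that level only in 2iL-ESCs the filter largely set the direction. Fkbp6, a partner of piRNA loading, had 11.9 in 2iL-ESCs and 0.257 in OSKM-ESCs, and Tuba3a, a testis tubulin, 15.2 and 1.25.

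The other genes of the piRNA pathway and nuage did not share a direction. Of 17, 13 were tested, 6 fell and 5 rose, and the median log2 fold change was -0.15, beside 0.03 over all genes tested. Of all 14016 genes tested, 3415 fell and 4131 rose. Tdrd12, a Tudor-domain helicase, fell from a mean FPKM of 41.9 to 6.01, a log2 fold change of -2.66 ± 0.18 (SE; limma adjusted p = 2.6e-07). Tdrd5, another Tudor-domain protein of nuage, rose from 1.01 to 4.18, a log2 fold change of 1.38 ± 0.10 (SE; limma adjusted p = 3.0e-07). In iPSCs limma called 1 of 13 meiosis genes, Hormad2, which fell, beside 2.96% of all genes.

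The genes that write, erase and guard silencing were mixed as well. Of 10 genes of the DNA methylation machinery 6 fell and 3 rose, with a median of -0.55. For this list and the next, 3415 of all 14016 genes tested fell and 4131 rose, with a median of 0.03. Prdm14, which holds de novo methylation down in naive cells, had a log2 fold change of -2.73 ± 0.11 (SE; limma adjusted p = 3.0e-09) and Tet3, an enzyme that oxidises methylcytosine, one of 1.44 ± 0.15 (SE; limma adjusted p = 7.8e-06). Prdm14 had a mean FPKM of 0.699 in OSKM-ESCs and 10.4 in 2iL-ESCs. Of 19 genes of PRC1.6 and of H3K9 methylation 8 fell and 5 rose, with a median of -0.05. E2f6, the subunit that reads the E2F motif, rose from 11.4 to 25.9, a log2 fold change of 1.10 ± 0.08 (SE; limma adjusted p = 5.4e-07), and Mga, which pairs with MAX on E-boxes, fell from 25.2 to 16.2 (log2 fold change -0.62 ± 0.08, SE; limma adjusted p = 2.9e-05). Their part in the levels of the members was not tested.

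Across the 18 libraries each member followed the mean of the other 9, with Pearson r between 0.796 for Tex101 and 0.960 for Stk31 on log2(FPKM + 1). These values describe the libraries, which share conditions, and carry no test. Among the 15567 genes that rose above an FPKM of 1 anywhere, those most like the mean of the 10 members were Zfp600 (r = 0.987), Zfp951 (r = 0.986), Zfp640 (r = 0.982), Syce1 (r = 0.977) and Gm33222 (r = 0.976). Syce1 is a further gene of the synaptonemal complex, and the 3 Zfp genes encode zinc finger proteins. Zfp600 had a mean FPKM of 1.10 in OSKM-ESCs and 9.62 in 2iL-ESCs. In the iPSCs it had 3.59 with OSKM and 14.1 with 2iL, and it was listed at 0 in both MEF libraries.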

How the data were processed

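Poly(A) RNA was sequenced from 18 mouse libraries. Per the labels and the submitters' processing notes, the authors aligned reads with STAR 2.7.1a and estimated genes with StringTie 2.0, and Cuffdiff 2.2.1 is also named. The build was GRCm38. The deposited tables give FPKM and, as signal, the coverage per base for each gene and sample. Of 55471 genes, 2 with a failed estimate were left out, and values of 11 repeated gene identifiers were summed.

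From the FPKM, log2(FPKM + 1) was tested with limma 3.58.1 in R 4.3.3 (lmFit, eBayes with trend). Genes entered a test if any compared library had an FPKM over 1. P-values were adjusted by Benjamini-Hochberg over all genes tested and called under 0.05. Fold changes on this scale understate changes of low genes. Single members were also compared by exact permutation without regard to day (Python 3.11.15, scipy 1.17.1), and the scripts were tested on simulated data. Groups came from the sample titles. Each ESC library is a culture and each iPSC library a clone.

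The members and gene lists were chosen with earlier results of these data known. Named genes were the members, up to 4 genes with the largest called change in each list, and the 5 genes most like the members' mean. Chpt1, Dnmt3l, Mga, Gm45752 and the genes named in iPSCs were added after their values were seen. Promoters came from RefSeq, and gene positions from GENCODE M21 were the same as the files' for all members. Alternatives were a pseudocount of 0.1, no filter, other scalings, the replicate number as a block, a single fit of the 9 conditions, the study's own cutoff, and each library left out.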

Additional observations from a re-analysis of the deposited data

Results flagged for a closer look

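Among 20 groups of 6 ESC cultures (10 members in each medium), 2 had a culture far from the others by Dixon's criterion. Its rate of about 1 in 20 such groups by chance assumes a normal spread, which values at 0 do not have. Both concern the second culture of day 25 of the OSKM-ESCs. Asz1 was at an FPKM of 0.0308 there and Dpep3 at 0.0762, while both genes were listed at 0 in the other 5 OSKM-ESC cultures. With the others at 0, any value above 0 passes the criterion, so it cannot tell whether this culture stands apart. The coverage behind such values is low, and this culture also had the highest value of Dazl, Ddx4, Mael, Sycp1, Sycp3 and Stk31 among OSKM-ESCs.

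The difference between media changed with the day for 5 of the 7 members tested, by the interaction in limma. The adjusted p was 0.0023 for Ddx4, 0.0026 for Mael, 0.0033 for Slc25a31, 0.0059 for Stk31 and 0.025 for Sycp1.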

How the results depend on the processing

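Over all days, all 140 values of single members under the alternatives kept their direction and their side of the threshold. Leaving out 1 library at a time left 7 to 7 members called over all days, 5 to 7 on day 18, 2 to 4 on day 25, 6 to 6 on day 38, 0 to 3 in iPSCs, 4 to 5 for medium by day, 2 to 4 for day in OSKM-ESCs and 2 to 4 for day in 2iL-ESCs. It left 0 to 1 between iPSCs and ESCs in OSKM medium, 0 to 2 in 2iL, 0 to 6 between OSKM-iPSCs and MEF cells and 3 to 8 between 2iL-iPSCs and MEF cells. Where a group then held 1 library, that library was assumed to vary like the other group. The lowest number on day 25 came without the first 2iL-ESC culture of that day, when Mael turned to a log2 fold change of -0.16, from a range up to 0.42. Ddx4 in iPSCs ranged from -1.35 to 0.31, the last without OSKM-iPSC clone 1. Between iPSCs and ESCs in 2iL, the number was 2 without the second 2iL-ESC culture of day 18.

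In iPSCs the number of members called was 1, and it was 0 with no filter (limma, 3 of 10 with an unadjusted p under 0.05), 5 in a single fit of the 9 conditions, which shares the spread of all conditions, and 3 at the study's cutoff. With no filter, which adds genes to the adjustment, 2 members were called for day in 2iL-ESCs and 0 between OSKM-iPSCs and MEF cells (1 with an unadjusted p under 0.05). A pseudocount of 0.1 gave 2 for the latter. For these 2 pseudocount and cutoff changes the cause was not tested.

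ESC cultures of a day share the numbers 1 and 2 between media, but their deviations correlated by only 0.137, 0.0943 and 0.0113 on days 18, 25 and 38, so the numbers are not a pairing. With the replicate number as a block 7, 7, 4 and 6 members were called over all days and on days 18, 25 and 38, as without it, and 6673 genes instead of 7546 over all days. Limits are the lack of read counts, 2 libraries per condition, 1 ESC line, and an FPKM near 0 for Asz1, Dpep3 and Tex101.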

Other observations

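Genes of the 2-cell stage, which a small share of naive ESCs express, were lower with the members. Of 6, 3 were tested in ESCs and all 3 fell in OSKM-ESCs, with a median log2 fold change of -2.45, and the same number fell in OSKM-iPSCs with a median of -3.86. None of the 6 was over an FPKM of 1 in OSKM-ESCs or OSKM-iPSCs, so the filter largely set this direction. Of all genes tested, 3415 of 14016 fell in OSKM-ESCs and 404 of 13653 in OSKM-iPSCs. Zscan4c, a zinc finger gene of that stage, had a log2 fold change of -2.49 over all days. Of 5 pluripotency markers 4 fell in OSKM-ESCs, with a median of -2.35, and 2 in OSKM-iPSCs. The 5 include Pou5f1, the gene of Oct4, and Sox2, which the transgene also encodes. Their FPKM in OSKM cells may thus hold reads from the transgene. Nanog, a factor of the naive network, had a log2 fold change of -2.70, and Esrrb, a nuclear receptor of the same network, one of -2.51.

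In iPSCs, limma called 1 of 6 other germline genes silenced through their promoters, Tex19.1, which fell, and their median log2 fold change was -2.08, beside 0.09 over all genes tested. Of all 13653 genes tested in iPSCs, 404 fell and 683 rose. Of 10 genes of the DNA methylation machinery 2 fell there, Tet2 and Prdm14. Of 12 genes of the piRNA pathway limma called 0, and 6 had an unadjusted p under 0.05, beside 29.3% of all genes. Of 19 genes of PRC1.6 and H3K9 methylation, Trim28, a corepressor, fell and E2f6 rose, and of 6 tested markers of primordial germ cells 1 fell, Kit. No marker of spermatids was tested. Limma called 0 of 8 tested fibroblast markers, with 0 at an unadjusted p under 0.05, and 0 of 1 oocyte marker, Zp3, with 1 at an unadjusted p under 0.05.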
